A study of Glycine max with 30 samples.

Results

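To investigate how accessible chromatin in soybean leaves differed between subjective day and subjective night, 9 ATAC-seq libraries labelled ZT0, ZT4 and ZT8 were compared with 9 libraries labelled ZT12, ZT16 and ZT20. These are 18 of the 30 samples of the series, chosen by their time label alone, and the other 12 were not analysed here. All 18 came from first trifoliate leaves of the wild-type cultivar Ws82 (Williams 82). Day and night plants shared the same history up to sampling. They were raised in short days of 8 h light and 16 h dark and then stood in constant light for 1 day before sampling began. The time points then followed in order, so night leaves had stood in constant light for longer than day leaves. Day against night therefore cannot be told apart from time in constant light or from the order of sampling. Leaves were taken every 4 h at 6 time points, with 3 biological replicates per time point, named L, M and R. No light or dark signal marked the groups at sampling, so day and night refer to the former cycle. Because the light period had lasted 8 h, ZT8 fell at its end. Each group holds 3 time points, and its 9 libraries are therefore 3 sets of replicates and not 9 draws from 1 condition.

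The circadian clock of plants is a set of transcription factors that repress one another in turn, so that morning genes such as LHY and evening genes such as TOC1 and LUX peak at opposite times and go on cycling in constant light. Clock factors bind short DNA motifs in promoters and enhancers. In ATAC-seq a transposase inserts adapters into DNA that is free of nucleosomes, and the fragments that pile up mark accessible chromatin regions (ACRs), where such factors can bind. A region can differ between day and night in whether a peak is called there or in how high its peak stands among the other peaks of the same library, and both were compared. Regions were the union of the 6 merged lists of the time points, with overlapping or touching regions joined, which gave 35922 regions on 20 chromosomes. Positions are on the Wm82.a2.v1 assembly, counted from 1, with no gene annotation, since none of that assembly was used here.

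Night lists were not distinguishable from day lists in length, whereas background coverage was higher at night. The number of peaks was 12712 ± 3634 in day libraries (SD, n = 9), from 7668 to 16939, and 14381 ± 4463 in night libraries (SD, n = 9), from 9518 to 21804. This difference was within the spread between libraries (exact permutation test, two-sided, p = 0.393, adjusted over 4 measures p = 0.393). The covered length was 3.81 ± 1.18 Mb by day and 4.41 ± 1.37 Mb at night (SD, n = 9 each, exact permutation p = 0.332, adjusted p = 0.393). The median peak width was 253 ± 15.9 bp by day and 260 ± 10.1 bp at night (SD, n = 9 each, exact permutation p = 0.336, adjusted p = 0.393).

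Background coverage is the genome-wide fragment density that the peak caller set as its floor, and it rises with the number and the length of the fragments. It was 0.462 ± 0.0507 fragments per base in day libraries (SD, n = 9), from 0.39 to 0.542, and 0.564 ± 0.093 in night libraries (SD, n = 9), from 0.485 to 0.784. The night mean was 1.22-fold higher (exact permutation test, two-sided, p = 0.00325, adjusted p = 0.0130), although the ranges of the groups overlapped. The highest value belonged to ZT12 replicate R. With each library left out in turn the difference, day minus night, ran from -0.112 to -0.0740 fragments per base, with exact permutation p from 0.00107 to 0.00843. When the 3 libraries of a time point were averaged first, 3 time points stood against 3, and the exact permutation p was 0.1, the smallest this design allows. The part of this difference in the region results was not tested.

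**Figure D1:**
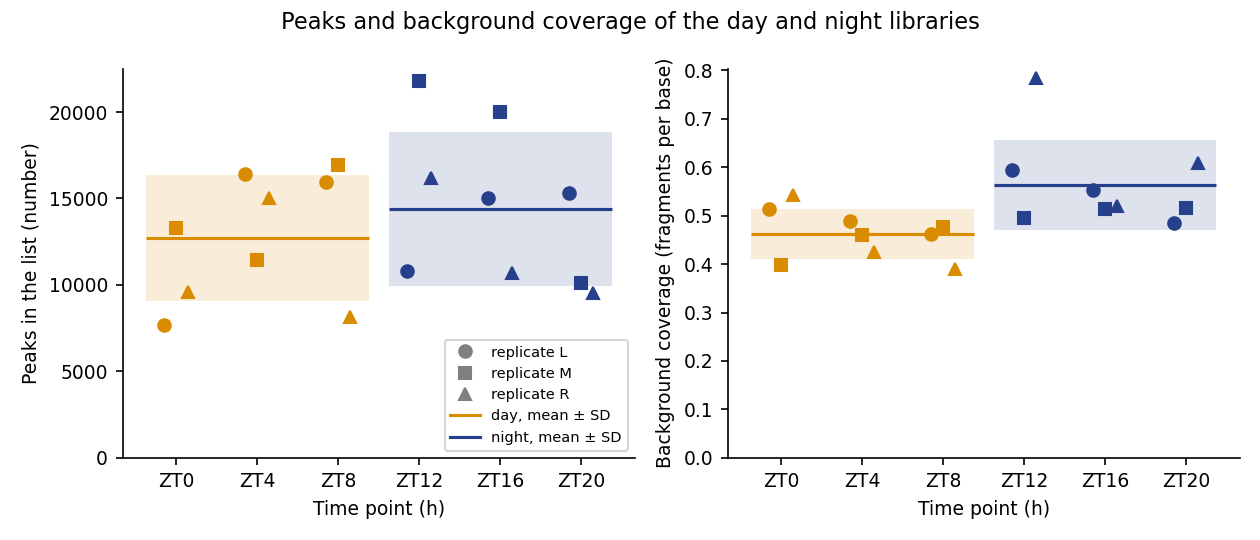
Peaks per list (left) and background coverage in fragments per base (right) against time point in h, with 1 point per library and the replicate letter given by its shape. Lines and bands are the mean ± SD of the 9 day and the 9 night libraries: peak numbers of the groups overlap widely, while background coverage averages 0.462 by day and 0.564 at night, with ZT12 replicate R at 0.784.

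To ask which regions were called in one group and missed in the other, the calls of each region were counted over 9 day and 9 night libraries. A region counted as called where a peak of the library overlapped it by 1 bp or more, and the 10468 regions called in 5 to 13 libraries were tested. Most of them were called about as often by day as at night, with counts that differed by at most 2 libraries in 71.8% of the regions. No region was called in all 9 libraries of one group and in 0 of the other (0% of those tested). Night had more calls than day in 52.0% of the regions, and day had more than night in 32.9%.

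After Benjamini-Hochberg adjustment 0 regions had a Fisher's exact p under 0.05 (0% of those tested), with 1 as the lowest adjusted p. Without adjustment, a Fisher's exact p under 0.05 was found in 399 regions (3.81%), of which 114 had more calls by day (1.09%) and 285 had more at night (2.72%). The design bounds this result: the smallest p that 9 against 9 calls can give is 4.11e-05. At that p at least 9 regions would be needed for any to pass the adjusted threshold, and at a larger p more. The unadjusted counts also changed when single libraries or time points were left out. Without 1 library the total ran from 451 to 605, over 399 in each fit. These were 4.64% to 6.11% of the 9249 to 9924 regions tested, against 3.81% of 10468. Fisher's exact test has other possible p with fewer libraries in a group, and the part of this in the changes was not tested. The day count was 222 without ZT0 replicate L, 204 without ZT0 replicate R, 196 without ZT8 replicate R and 212 without ZT12 replicate M. The night count was 432 without ZT4 replicate L, 434 without ZT8 replicate L, 443 without ZT8 replicate M, 431 without ZT20 replicate M, and 474 with ZT20 replicate R left out. Without a whole time point the day count was 258 without ZT0, 51 without ZT4 and 208 without ZT12, and the night count was 151 without ZT16 and 471 without ZT20. With a time point out, 7753 to 8382 regions were tested. Both directions together then made up from 3.56% (without ZT16) to 7.26% (without ZT20) of them. The adjusted count was 0 in each of these fits.

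The excess of night calls was smaller when every list had the same length. When only the 7668 peaks of highest −log10 q were counted in every library, the length of the shortest list, 5640 regions were tested and 285 had an unadjusted Fisher's exact p under 0.05 (5.05%). They divided into 139 with more day calls (2.46%) and 146 with more night calls (2.59%), so that night held 51.2% of them, against 71.4% with all peaks. Again 0 regions passed after adjustment (0%), and the lowest adjusted p was 0.773. Night had more calls in 46.5% of these regions and day in 39.4%. Few regions were picked in both settings. The day lists shared 27 regions, 23.7% of the 114 and 19.4% of the 139, and the night lists shared 43, which were 15.1% of the 285 and 29.5% of the 146.

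**Figure D2:**
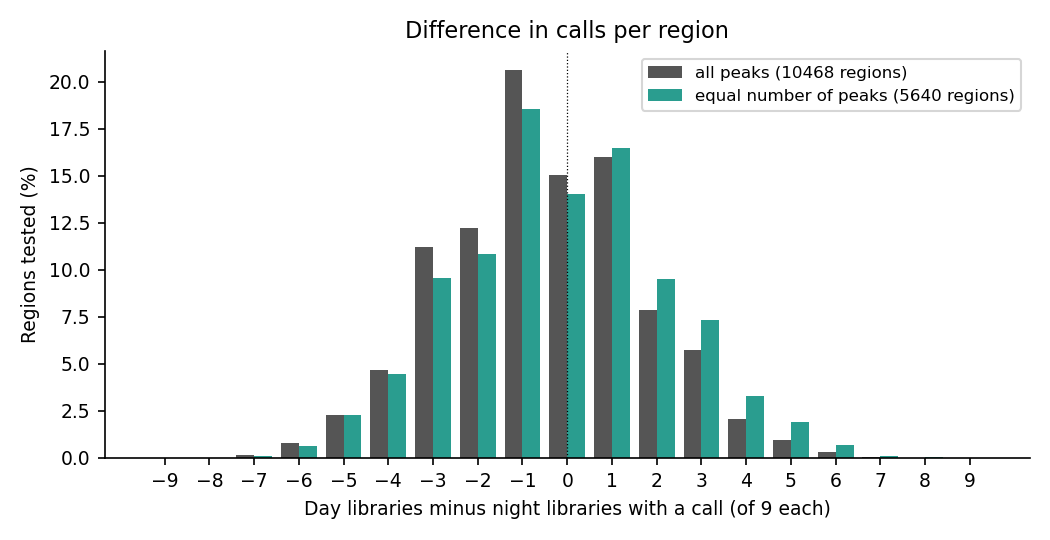
Share of the regions tested (%) against the number of day libraries minus the number of night libraries with a call, for all peaks (10468 regions) and for equal numbers of peaks per library (5640 regions). With all peaks the bars lean to the night side, with a median difference of -1, and with equal numbers of peaks the median is 0; neither setting has a region at 9 or -9.

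The regions picked at the unadjusted threshold were described by time point, which the selection did not use beyond the group. The 114 day regions were called in 52.6% of libraries at ZT0, 81.3% at ZT4 and 79.8% at ZT8, and in 15.2%, 8.48% and 10.2% at ZT12, ZT16 and ZT20. ZT0 was the low point of the day regions within the day group. With equal numbers of peaks its share in the 139 day regions was 61.4%, against 78.4% at ZT4 and 79.6% at ZT8. Calls of the 285 night regions were made in 78.6% of libraries at ZT12, 83.5% at ZT16 and 67.3% at ZT20, and in 12.3%, 18.6% and 17.9% at ZT0, ZT4 and ZT8. Over all regions tested, ZT0 and ZT20 also had the fewest calls, at 31.6% and 37.5%, against 47.2% to 55.0% at the other time points. With equal numbers of peaks that spread shrank to between 44.1% and 49.5%, and the 146 night regions then had calls in 76.7%, 84.2% and 73.1% of libraries at ZT12, ZT16 and ZT20.

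Neither list stood far from all tested regions in width or place. The median width was 528.5 bp for the 114 day regions and 548 bp for the 285 night regions, against 493 bp for all regions tested. The outer 25% at both chromosome ends held 78.9% of the day regions, 71.6% of the night regions and 75.9% of all tested regions. These shares are descriptions of lists that the call test picked, and their differences were not tested.

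Among the day regions named by the rule, 2 were called in all 9 day libraries. Day call region 1 (chromosome 16 from 30679267 to 30680219, 953 bp) was called in 9 of 9 day libraries and in 1 of 9 night libraries, ZT20 replicate M (Fisher's exact p = 0.000411, adjusted p = 1). It was counted in 8 of 9 day libraries and again in 1 night library with equal numbers of peaks (Fisher's exact p = 0.00337, adjusted p = 0.880). Day call region 2 (chromosome 2 from 5783469 to 5784560, 1092 bp) was called in 9 of 9 day libraries and in 2 of 9 at night, ZT20 replicates L and R (Fisher's exact p = 0.00226, adjusted p = 1). With equal numbers of peaks it had 8 day calls and 1 night call. In both regions the night calls fell at ZT20, the time point before subjective dawn.

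Another 4 day regions had no more than 1 night call. Day call region 3 (chromosome 16 from 32400662 to 32401302, 641 bp) was called in 7 day libraries and no night library (Fisher's exact p = 0.00226), and in 5 against 0 with equal numbers of peaks. Day call region 4 (chromosome 12 from 162019 to 162341, 323 bp) had the same 7 against 0 calls, but with equal numbers of peaks it was left with 1 day call, at ZT0, too few to be tested. Of its 7 calls 6 came from peaks outside the highest 7668 of their lists. Day call region 5 (chromosome 10 from 45294544 to 45294824, 281 bp) was called in 8 day libraries and at night in ZT12 replicate M only (Fisher's exact p = 0.00337), with the same 8 against 1 when equal numbers of peaks were counted. Day call region 6 (chromosome 19 from 45949313 to 45950096, 784 bp) was called in 6 day libraries and 0 at night (Fisher's exact p = 0.00905), 3 of the 6 at ZT4. The day libraries without the call in regions 3, 4 and 6 included ZT8 replicate R each time, whose list held 8143 peaks and was among the shortest. The adjusted p of all 4 regions was 1.

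Of the night regions, night call region 1 (chromosome 7 from 10889167 to 10889623, 457 bp) had the clearest difference. It was called in 8 of 9 night libraries, all but ZT12 replicate L, and in 0 of 9 day libraries (Fisher's exact p = 0.000411, adjusted p = 1). With equal numbers of peaks the calls were 6 against 0, with 1 at ZT12, 2 at ZT16 and 3 at ZT20 (Fisher's exact p = 0.00905, adjusted p = 0.880). Night call region 2 (chromosome 4 from 39295219 to 39295627, 409 bp) was called in 7 night libraries and no day library (Fisher's exact p = 0.00226), in 3 of 3 libraries at ZT12 and at ZT16 and in 1 of 3 at ZT20. It also had 6 against 0 calls with equal numbers of peaks. Both regions were free of day calls in either setting.

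The other 4 night regions were called in all 9 night libraries and in 2 day libraries each (Fisher's exact p = 0.00226, adjusted p = 1). They were night call region 3 (chromosome 11 from 34152290 to 34153461), region 4 (chromosome 16 from 12383749 to 12384605), region 5 (chromosome 13 from 28975462 to 28976766) and region 6 (chromosome 8 from 4608322 to 4608823), 502 to 1305 bp wide. The day calls of region 3 were in ZT0 replicate M and ZT8 replicate M, and both day calls of region 4 were at ZT8. With equal numbers of peaks region 3 had 6 night calls and 1 day call (Fisher's exact p = 0.0498), while regions 4, 5 and 6 fell to 4 night calls against 1, 1 and 2 day calls, with Fisher's exact p from 0.294 to 0.620. For these 3 regions the difference was past the unadjusted threshold with all peaks alone, and the change between settings was not tested.

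**Figure D3:**
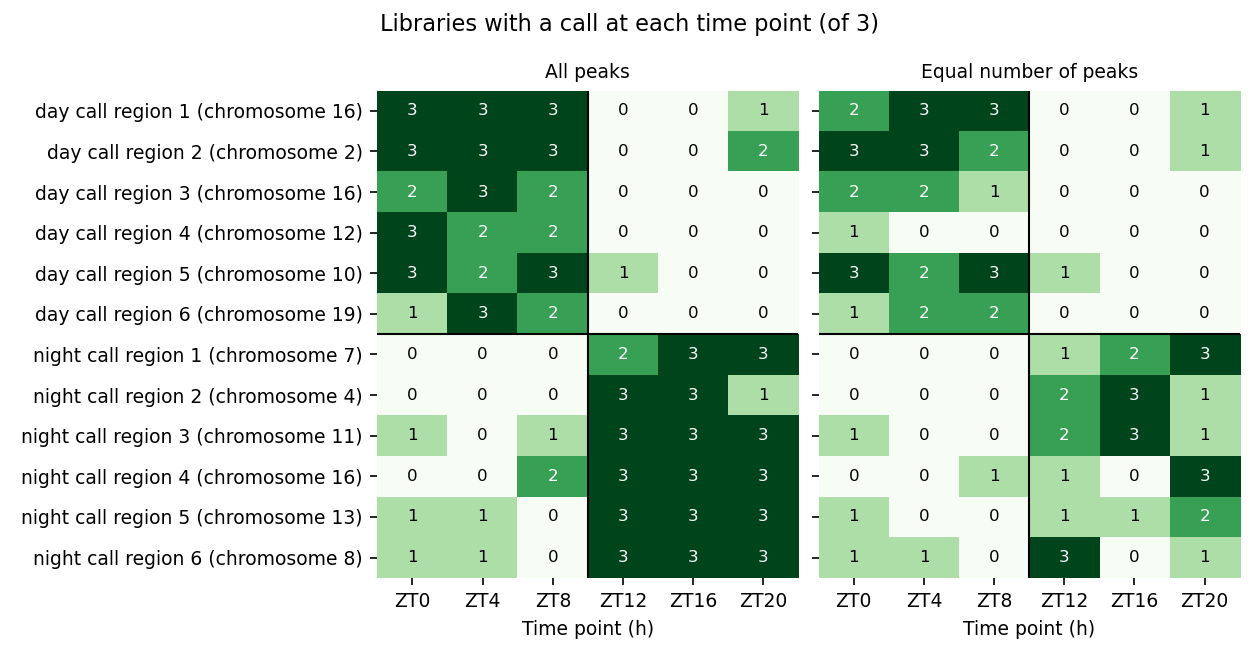
Number of libraries with a call (of 3) at each time point for the 6 day and 6 night regions named by the rule, with all peaks (left) and with equal numbers of peaks per library (right). Day call region 1 reads 3, 3, 3 by day and 0, 0, 1 at night with all peaks, and night call regions 4 to 6 lose most of their night calls in the right panel.

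To compare peak heights, the 2275 regions with a peak in all 18 libraries were ranked by −log10 q among themselves within each library, so that list length does not enter the scale. Ranks were turned into normal scores, on which 0 is the middle of the list, and day was compared with night by limma. Of these regions 3 had a Benjamini-Hochberg adjusted p under 0.05 (0.132%), 2 of them higher by day (0.0879%) and 1 higher at night (0.044%). At an unadjusted p under 0.05 there were 169 (7.43%), 88 higher by day (3.87%) and 81 higher at night (3.56%). Ranking within the whole list, whose length differed between libraries, changed that split to 23 higher by day (1.01%) and 152 higher at night (6.68%). On that scale the median region had a difference, day minus night, of -0.0743. With the exact permutation test in place of limma, 0 regions passed after adjustment, at a lowest adjusted p of 0.0936, and 207 were under 0.05 before it (9.10%). The smallest exact permutation p this design can give is 4.11e-05, reached by the chromosome 14 region from 46184076 to 46184694. A region alone at that p has an adjusted p of 0.0936, so the design bounds this count of 0. With time point as a random block in limma the count of adjusted calls was again 3 (correlation within a time point 0.0457). That correlation is 1 value shared by all regions, and the time points of a single region can differ more than it allows for. On means of 3 time points against 3, no exact permutation p could be under 0.1. With equal numbers of peaks 1819 regions had a peak in all 18 libraries, and 2 of them passed (0.11%), 1 in either direction (0.055%). At an unadjusted p under 0.05 these were 130 (7.15%), with 67 higher by day (3.68%) and 63 higher at night (3.46%).

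The lowest p belonged to a region of 1947 bp on chromosome 5, from 32149313 to 32151259. Its percentile among the 2275 regions was 41.7 at the lowest, 71.9 at the median and 83.0 at the highest in day libraries, and 1.25, 4.68 and 42.2 in night libraries. The ranges overlapped by a small margin, since ZT8 replicate L stood at 41.7 and ZT20 replicate M at 42.2. At ZT12 the 3 libraries lay between 1.25 and 3.43 and at ZT16 between 3.82 and 5.05, near the bottom of the list, whereas at ZT20 they lay between 29.2 and 42.2. The night values thus came in 2 levels, low at ZT12 and ZT16 and intermediate at ZT20. This wide region held 2 peaks in ZT4 replicate R, ZT8 replicates L and M and ZT16 replicate R, of which the higher was taken. The summits lay from about 32149700 to 32150000 by day and from about 32149500 to 32150300 at night. Whether all heights belong to 1 peak was not tested.

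The day minus night difference of this chromosome 5 region was 1.91 ± 0.27 on the normal score scale (SE, limma, adjusted p = 0.00466), and its adjusted p was between 0.000869 and 0.0155 when each library was left out. It was not past the threshold without ZT4 (limma adjusted p = 0.106), without ZT12 (0.0822) or without ZT16 (0.0956). The fragments at its summit, recovered from the deposited values, were 22 to 46 with a median of 38.5 in 8 day libraries and 7 to 20 with a median of 14 in 9 night libraries. These recovered values did not overlap. No value was recovered for ZT4 replicate R, whose −log10 q of 49.0 was the highest of this region. Genome-wide background coverage was higher at night, and its part in the difference was not tested. The local background of the region, which the peak caller takes from the surroundings of a peak, was 1.65 to 3.75 fragments per base in the 8 day libraries and 0.684 to 1.84 at night. It lies outside the rule for named regions, which asked for a peak in all 18 libraries with equal numbers of peaks, since its ZT12 replicate L peak was not among the highest 7668, and it was singled out after its values were seen.

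The 663 bp region on chromosome 9 from 1724140 to 1724802 also stood higher by day. Its percentile ran from 36.8 to 65.6 with a median of 52.6 in day libraries and from 9.07 to 43.3 with a median of 21.2 in night libraries, so the groups overlapped. The fragments at the summit were 12 to 24 by day (median 19) and 11 to 18 at night (median 16). The difference in score was 0.89 ± 0.16 (SE, limma, adjusted p = 0.0271), and 1.04 ± 0.19 with equal numbers of peaks (limma adjusted p = 0.0307).

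On chromosome 14, the 619 bp region from 46184076 to 46184694 was the only 1 of the 2275 whose groups did not overlap (0.044%). Its night percentiles were tightly grouped, from 78.3 to 84.7 with a median of 81.8, and its day percentiles ran from 48.4 to 77.7 with a median of 68.5. The score was lower by day by -0.49 ± 0.09 (SE, limma, adjusted p = 0.0271; adjusted p = 0.0307 with equal numbers of peaks). The fragments at its summit were 16 to 29 in the 9 day libraries, and 31 to 43 in the 5 night libraries for which they could be recovered. The other night libraries had the highest −log10 q of the region, from 48.8 to 76.2, so 43 bounds the recovered values alone. The smallest of the region's percentile medians by time point was at ZT0, 60.2, and the highest at ZT12, 82.6.

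The calls on chromosomes 9 and 14 lay near the threshold and were lost in many of the fits without 1 library. Their differences in score stayed between 0.82 and 0.97 and between -0.53 and -0.43 in these fits. With each library left out their limma adjusted p ran from 0.00788 to 0.07 and from 0.00890 to 0.07. Both adjusted p were over 0.05 without ZT0 replicate R, ZT4 replicate L, ZT12 replicates L, M and R, ZT16 replicate L and ZT20 replicates M and R, and that of chromosome 14 also without ZT16 replicates M and R. The number of regions past the adjusted threshold was 1 in the first 8 of these fits and 2 in the last pair, and it was 5 without ZT0 replicate M and 7 without ZT20 replicate L. Without whole time points the chromosome 9 region was lost without ZT4 (limma adjusted p = 0.152), ZT8 (0.174) and ZT12 (0.135), and the chromosome 14 region without ZT0 (0.0935), ZT4 (0.106), ZT12 (0.159) and ZT16 (0.275). By time point the number of regions, of the same 2275 tested, was 5 without ZT0, 0 without ZT4 and without ZT12, 1 without ZT16 and 13 without ZT20. With fold over background in place of −log10 q it was 0, with 167 regions at an unadjusted p under 0.05 (7.34%) and a smallest adjusted p of 0.0535.

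**Figure D4:**
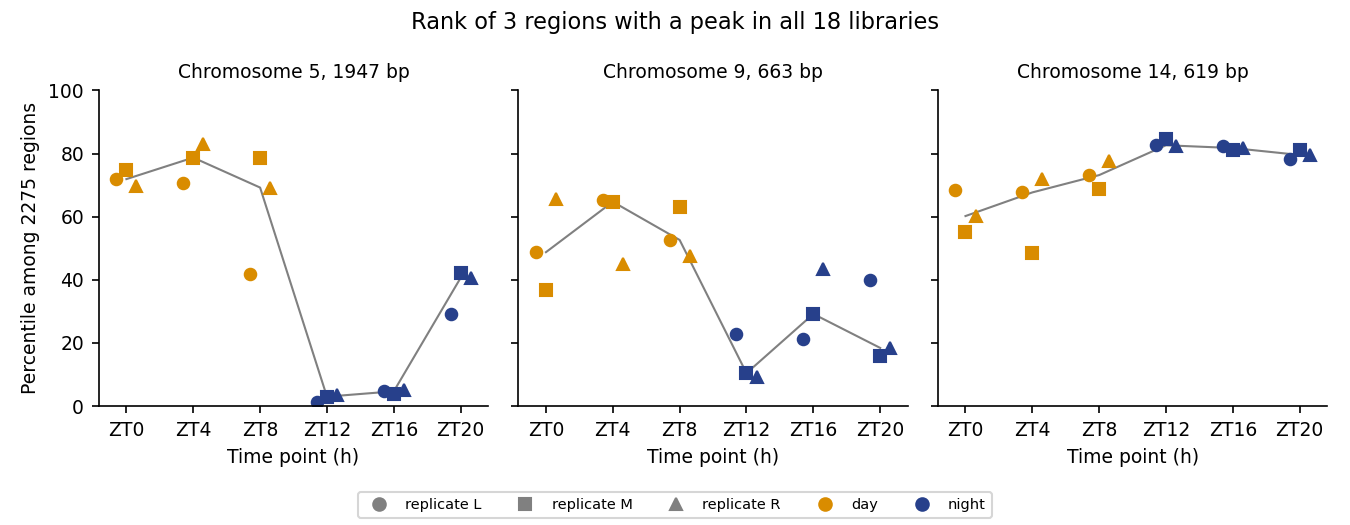
Percentile of 3 regions among the 2275 regions with a peak in all 18 libraries (100 is the highest −log10 q), against time point in h, with 1 point per library and a grey line through the time-point medians. The chromosome 5 region falls from 69.2 at ZT8 to 2.99 at ZT12 by these medians, the chromosome 9 region is lower at night with overlap, and the chromosome 14 region is higher at night without overlap.

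The other regions named by the rule had adjusted p over 0.05 and are given as values. Higher by day were chromosome 5 from 4591579 to 4592418 (median percentile 72.0 by day and 50.0 at night), chromosome 12 from 3978742 to 3979502 (52.3 and 25.7), chromosome 2 from 6349938 to 6350543 (46.2 and 20.6), chromosome 7 from 16157108 to 16157765 (72.9 and 43.6) and chromosome 5 from 41066865 to 41067826 (25.0 and 6.11). Their limma adjusted p lay between 0.159 and 0.210, and day and night percentiles overlapped in each. The last of them stood at a median of 26.3 at ZT12 and at 3.65 and 3.27 at ZT16 and ZT20. Higher at night were chromosome 15 from 7392640 to 7393258 (29.4 by day and 70.0 at night), chromosome 4 from 45073395 to 45074119 (15.5 and 50.9), chromosome 2 from 9401544 to 9402333 (24.7 and 52.7), chromosome 14 from 931845 to 932651 (37.2 and 56.5) and chromosome 12 from 11257851 to 11258930 (27.7 and 42.2). Their limma adjusted p lay between 0.0783 and 0.205, and again all 5 overlapped. The chromosome 15 region fell through the day group, with medians of 56.9 at ZT0, 35.1 at ZT4 and 17.7 at ZT8, before 73.8 at ZT12.

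Over the whole list, the 88 regions higher by day at the unadjusted threshold had mean percentiles of 45.6, 48.5 and 46.8 at ZT0, ZT4 and ZT8 and of 28.3, 27.4 and 32.6 at ZT12, ZT16 and ZT20. The 81 higher at night had 34.2, 33.2 and 33.7 in the day group and 49.2, 49.6 and 49.4 in the night group. Within either group the time points thus differed little, as a mean over regions that the comparison itself had picked.

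Regions that lost their peak in some libraries were brought in by ranking the 6332 regions called in 9 or more libraries, with equal numbers of peaks per library and with libraries that lacked a counted peak tied at the lowest rank. By limma 6 regions had an adjusted p under 0.05 (0.0948%), 5 higher by day (0.079%) and 1 higher at night (0.0158%), and 610 had an unadjusted p under 0.05 (9.63%), with 306 higher by day (4.83%) and 304 at night (4.8%). The chromosome 5 region was among them (adjusted p = 0.00693), and here its day percentiles of 73.7 to 92.8 lay above its night percentiles of 10.8 to 72.5. It was lost without ZT4 (limma adjusted p = 0.0846) and without ZT16 (0.120). The filter of 9 calls could be met by one group alone, and the 9 day libraries met it in each of the 5 regions higher by day, of which the counted night peaks were 8 on chromosome 5 and from 1 to 4 in the others. Libraries without a counted peak have no height of their own and carry the tied value, so the standard errors and p-values of this ranking rest in part on ties. The tied value differs between libraries with the number of regions that lack a counted peak. It was percentile 7.0 in ZT16 replicate L and 15.3 in ZT8 replicate R. Of all 6332 regions, 4 had groups that did not overlap (0.0632%): this one, the chromosome 14 region from 46184076 to 46184694, which missed the threshold here (limma adjusted p = 0.0871), and 2 regions higher by day on chromosomes 10 and 18. The chromosome 9 region from 1724140 to 1724802 also missed the threshold in this ranking (limma adjusted p = 0.0515). With time point as a random block in limma 5 regions passed and 482 (7.61%) had an unadjusted p under 0.05 (correlation within a time point 0.0736, again 1 value for all regions).

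The time course on chromosome 8 from 6275910 to 6277720, 1811 bp wide, ran close to that on chromosome 5. Its percentile was 76.0 to 88.2 in day libraries (median 86.8) and 7.0 to 83.8 in night libraries (median 10.8). A peak was counted in 0 of 3 libraries at ZT12, in 1 of 3 at ZT16 and in 3 of 3 at ZT20, where the percentiles were 34.9, 58.2 and 83.8, so the overlap of the groups came from ZT20. Before peaks were limited to equal numbers, 8 of the 9 night libraries had a peak there, with 8 to 24 fragments at the summit (median 10), against 19 to 40 in day libraries (median 34). Its local background was 1.49 to 3.35 fragments per base by day and 0.632 to 1.63 in these 8 night libraries. The summits lay from about 6276560 to 6276840 by day and from about 6276290 to 6276700 at night. Here too, whether all heights belong to 1 peak was not tested. The difference in score of the region was 1.81 ± 0.28 (SE, limma, adjusted p = 0.00693). The region met the filter through the 9 day libraries, and its p-values keep that selection and the ties. It missed the threshold without ZT4 (limma adjusted p = 0.0846), ZT8 (0.0513), ZT12 (0.0804) or ZT16 (0.120).

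The regions on chromosomes 10 and 18 had hardly any counted peaks at night, so that their night values were mostly ties. The 432 bp region on chromosome 10 from 4327396 to 4327827 had percentiles of 36 to 66.3 by day (median 50.6) and 7.0 to 34.0 at night (median 10.2), with a difference in score of 1.15 ± 0.15 (SE, limma, adjusted p = 0.00112). A peak was counted in 9 day libraries and in 2 night libraries, ZT12 replicate M and ZT16 replicate R. The 570 bp region on chromosome 18 from 15087565 to 15088134 had percentiles of 31.2 to 69.5 by day (median 50.4) and 7.0 to 25.1 at night (median 9.34), with a difference of 1.23 ± 0.15 (SE, limma, adjusted p = 0.00112). There 9 day libraries and 1 night library, ZT20 replicate R, had a counted peak. With the tied values in place, the limma adjusted p of both was at most 0.00406 with each library left out and at most 0.0337 with each time point left out. Both regions met the filter through the 9 day libraries, and these fits keep that selection and the ties. They are therefore no separate test of the 2 regions.

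These were modest peaks. On chromosome 10 the summit held 7 to 16 fragments by day (median 13) and 7 to 14 in the 6 night libraries with any peak (median 7.5). On chromosome 18 it held 7 to 21 by day (median 14) and 7 to 11 in 4 night libraries (median 8). The fragment numbers of day and night overlapped in both regions. Of these night peaks, 4 of 6 on chromosome 10 and 3 of 4 on chromosome 18 were not among the highest 7668 of their list.

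The region on chromosome 14 from 45688090 to 45688995 had percentiles of 39.1 to 74.4 by day (median 51.3) and 7.0 to 39.2 at night (median 10.2), with an overlap of less than 1 percentile. Its difference in score was 1.20 ± 0.19 (SE, limma, adjusted p = 0.00693), with an adjusted p of 0.0846 without ZT4 and of 0.120 without ZT16. A peak was counted in 9 day libraries and 3 night libraries, so the region met the filter through the day libraries. Its other night values are ties, and these p-values keep that selection. The fragments at its summit overlapped, with 8 to 21 by day (median 16) and 8 to 13 in the 6 night libraries with any peak (median 9.5). The 417 bp region on chromosome 18 from 45881446 to 45881862 was the one higher at night. A peak was counted in 8 of 9 night libraries, all but ZT20 replicate R, and in 2 of 9 day libraries, ZT0 replicate R and ZT8 replicate M. Its percentiles were 8.20 to 36.7 by day (median 11.6) and 11.1 to 81.6 at night (median 65.8), with a difference of -1.27 ± 0.23 (SE, limma, adjusted p = 0.0364). Both minima are tied values, of ZT4 replicate L by day and of ZT20 replicate R at night.

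The night region on chromosome 18 from 45881446 to 45881862 kept its direction without any 1 library, with a difference in score from -1.45 to -1.19, but not always its call. Its limma adjusted p ran from 0.00032 to 0.0770 over the fits without each library, and it was past the threshold in 8 of the 18. With time point as a random block it missed the threshold (limma adjusted p = 0.0929). It was not past it without ZT0 replicate L, any ZT4 or ZT16 replicate, ZT8 replicates L and R or ZT12 replicate R. The count of regions past the threshold was 16 without ZT0 replicate M or ZT20 replicate L, 15 without ZT0 replicate R, 13 without ZT20 replicate M and 12 without ZT12 replicate M. By time point it was 39 without ZT0, 3 without ZT4, 11 without ZT12, 2 without ZT16 and 35 without ZT20, each of the same 6332 regions tested.

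**Figure D5:**
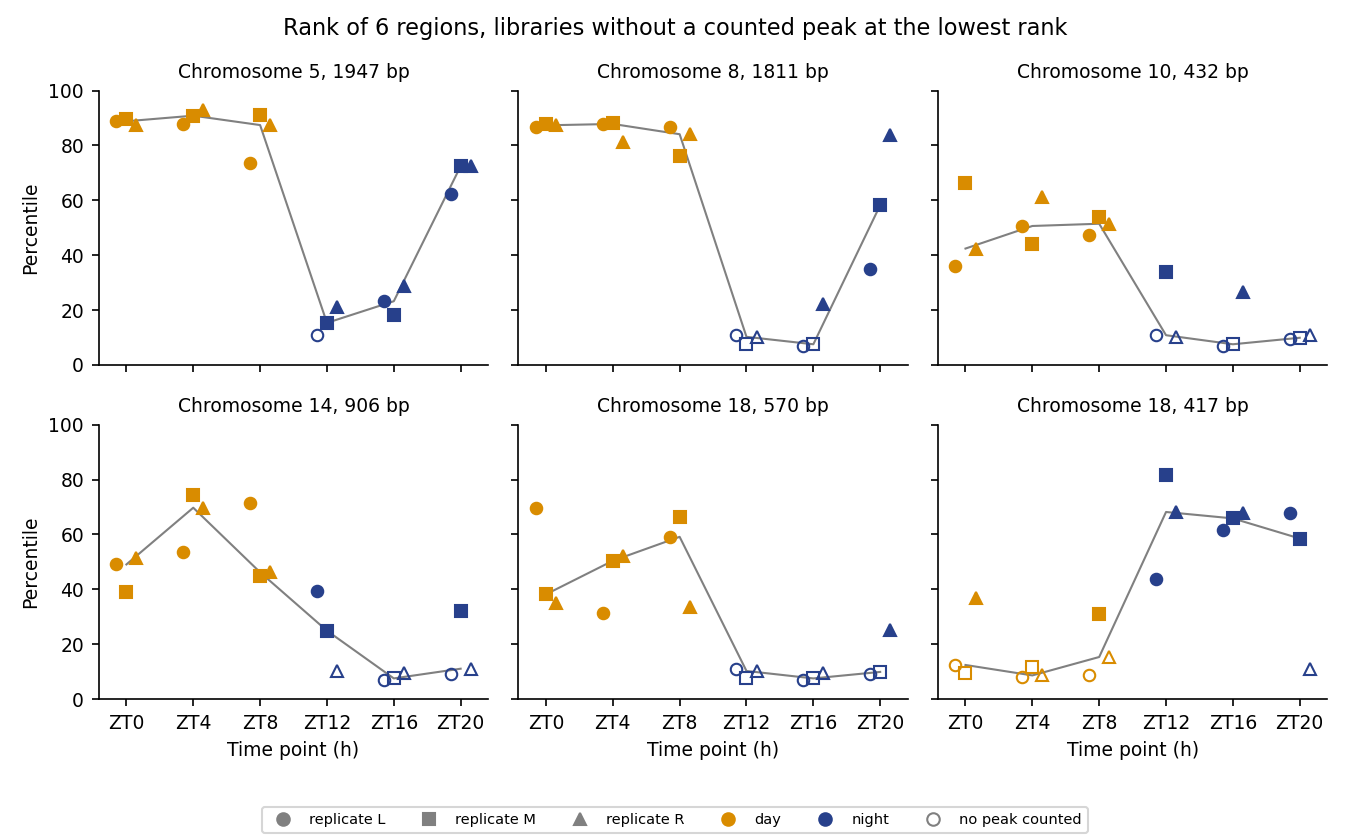
Percentile of 6 regions among the 6332 regions called in 9 or more libraries, with equal numbers of peaks per library, against time point in h. Open symbols are libraries with no counted peak, tied at the lowest rank, and grey lines join time-point medians; the chromosome 5 and chromosome 8 regions fall at ZT12 and rise at ZT20, and the chromosome 18 region of 417 bp is high at night in 8 of 9 libraries.

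Whole peak sets were hardly more alike within day or night than between them. The Jaccard index, the shared share of the bases covered by either of 2 libraries, averaged 0.321 over 54 pairs from the same group but different time points and 0.319 over 81 pairs of a day and a night library. Equal numbers of peaks gave 0.391 and 0.387. The 18 pairs of replicates of the same time point averaged 0.340, and 0.417 with equal numbers of peaks. Pairs share libraries, so these means are descriptions. At a separation of 4 h the pairs within a group were a little more alike than those across its edge, with 0.331 against 0.321 (0.402 against 0.383 with equal numbers of peaks). At 8 h the order was the reverse, with 0.3003 within a group and 0.322 across (0.367 and 0.391). Night libraries of different time points were more alike among themselves, at 0.329, than day libraries, at 0.313, and with equal numbers of peaks these means were 0.406 and 0.375. Much of this came with 1 library, since without ZT8 replicate R the day means were 0.323 and 0.391.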

How the data were processed

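The authors trimmed paired ATAC-seq reads of 18 libraries, aligned them to the Wm82.a2.v1 assembly with Bowtie2, keeping up to 10 alignments per pair, and called peaks with MACS2 after bringing libraries to a standard depth, so totals of reads are unknown here. FastQC is also named in the submitters' processing notes. The deposited library lists give each peak's fold over background (a ratio) and its −log10 p and −log10 q, as the authors' caller wrote them. Heights differ with depth and were used as ranks within a list. The deposited merged lists give start and end only, of regions the authors called on merged reads of a time point and retained where single replicates also had them. 

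Whole fragments at the summit and their background were recovered from fold and −log10 p for peaks with a −log10 p under 50 (tolerance 0.0005); 99.955% or more of these peaks per library gave a whole number. Groups came from the time labels. Library values were compared by exact permutation over all 48620 splits, calls by Fisher's exact test (regions called in 5 to 13 libraries) and ranks by limma on normal scores of rank/(n + 1), all two-sided, with Benjamini-Hochberg adjustment over all regions tested and a threshold of 0.05. Call and rank tests were tested on simulated data. Named were the 6 regions per direction of smallest Fisher's p, ties broken by p with equal numbers of peaks and then in the upper 50% of each list, and the 6 per direction of smallest limma p with the same sign with equal numbers of peaks; other regions past a threshold were added after their values were seen. Clock genes could not be placed without an annotation of that assembly. The members, lists and tests were chosen with earlier results of these data known. Alternatives are given in the closing section; those on ranks with missing peaks lowest, and leaving out libraries with equal numbers of peaks, were chosen after seeing the data. Tests were run in R 4.3.3 with limma 3.58.1 and in Python 3.11.15 with scipy 1.17.1, numpy 2.4.6 and pandas 2.3.3, and plots were drawn with matplotlib 3.10.9.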

Additional observations from a re-analysis of the deposited data

Results flagged for a closer look

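In each group of 9 libraries the highest and the lowest value were compared with the rest by Dixon's 95% critical value, over 44 groups of library values and of percentiles of the named regions. A library stood apart in 3 of them. A chance rate of about 1 in 20 groups holds for independent, normally spread values. Many of these groups are percentiles of regions picked from these data, some with ties, so that rate does not apply to them. ZT12 replicate R had a background coverage of 0.784 fragments per base, whereas the other 8 night libraries lay between 0.485 and 0.609. In the chromosome 5 region from 32149313 to 32151259, ZT8 replicate L stood at percentile 41.7 and the other 8 day libraries between 69.2 and 83.0. In the chromosome 18 region from 15087565 to 15088134, with missing peaks at the lowest rank, ZT20 replicate R stood at percentile 25.1 and the other night libraries between 7.0 and 10.8, the values of libraries without a counted peak. With all others tied lowest, the only library with a counted peak was bound to stand above them.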

How the results depend on the processing

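The counts of regions at an unadjusted p under 0.05 moved with the peaks counted and with the samples left out. The 114 regions with more day calls were 42 with a −log10 q of at least 5, 57 in the upper 50% of each list and 73 at 50% overlap, and without a time point 258 (ZT0), 51 (ZT4) and 208 (ZT12). With the first 3 of these choices both directions together were 3.79%, 4.10% and 3.90% of the regions tested, against 3.81% in the main setting. The 285 with more night calls were 146 with equal numbers of peaks and 169 in the upper 50%, and without a time point 151 (ZT16) and 471 (ZT20). The first 3 peak choices and the equal number count fewer calls by construction, and otherwise the cause was not tested. Across the 18 fits without 1 library the day count ran from 102 to 222 and the night count from 277 to 474, and with equal numbers of peaks from 145 to 187 and from 162 to 204. Both directions together were 4.64% to 6.11% of the regions tested, and 6.38% to 7.27% with equal numbers of peaks. The count ranges with equal numbers of peaks lie above the 139 and 146 of all 18 libraries. Leaving out a library also changes which p Fisher's exact test can give. The adjusted count was 0 in all call settings.

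Of regions past the adjusted threshold by ranks, 3 with −log10 q, there was 1 with ranks within the whole list, 0 with fold and 0 with the exact permutation test. In the exact permutation test 1 region alone at the smallest possible p cannot pass. Without a time point there were 5 (ZT0), 0 (ZT4), 0 (ZT12), 1 (ZT16) and 13 (ZT20), and from 1 to 7 without 1 library. With missing peaks lowest, 6 became 39 (ZT0), 3 (ZT4), 11 (ZT12), 2 (ZT16) and 35 (ZT20) without a time point and 5 to 16 without 1 library, and with all peaks 10144 regions were tested, of which 9 passed and 985 had an unadjusted p under 0.05 (9.71%, against 9.63% of 6332). The unadjusted counts ran from 160 to 205 (7.03% to 9.01%) and, with missing peaks lowest, from 560 to 660 (8.84% to 10.4%) without 1 library. The background difference of -0.102 fragments per base lost its call over time-point means (exact permutation p = 0.1).

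Whether the letters L, M and R pair libraries was checked on deviations from the means of the time points. Over 45 same-letter pairs their correlations ran from -0.164 to 0.130 in ranks and from -0.0324 to 0.0399 in calls, with 4 and 0 of them over 0.1, so letters were not taken as pairs. As a hint from the data and not the design, 12 of 18 libraries correlated best with their own letter in ranks and in calls. Under the replicate block 87 regions had more day and 205 more night calls at an unadjusted p under 0.05 (together 2.79% of those tested), 109 and 97 with equal numbers of peaks (together 3.65%). With it 3 regions passed by ranks and 10 with missing peaks lowest, 0 passed by calls, and background coverage had an exact permutation p of 0.00325.

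Calls are yes or no and depend on depth, and without reads or counts a region near the calling threshold cannot be told from one that closed.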

Other observations

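The authors' merged lists, which carry no replicates of their own, were also set side by side. Of the 35922 union regions 20000 were in at least 1 day list and at least 1 night list (55.7%), 6848 were in day lists alone (19.1%) and 9074 in night lists alone (25.3%). Regions of both groups had a median width of 487 bp and were called in a median of 9 libraries, whereas those of day lists alone and of night lists alone had median widths of 271 and 282 bp and were called in a median of 1 library. In all 3 day lists and no night list were 137 regions (0.381%), and in all 3 night lists and no day list were 278 (0.774%), with median widths of 442 and 456.5 bp and a median of 5 libraries with a call in both sets.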
